A study of Mus musculus with 9 samples.

Results

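The 47 genes described here encode the canonical Wnt pathway, from ligand to nuclear effector. They form a fixed list of gene symbols with no cut on a measured value, though the list was drawn up with earlier results of these data known, and all 47 were found among the 46517 genes of the count tables. By role they are 8 Wnt ligands, 2 proteins of ligand secretion, 8 receptors and co-receptors, 3 dishevelled proteins, 6 proteins of the β-catenin destruction complex or its control, 10 nuclear proteins, 3 proteins of the R-spondin arm and 7 inhibitors.

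RNA was sequenced from wild-type C57BL/6 duodenal organoids, which are crypt-derived epithelial cultures grown in a basement membrane matrix. The study asked how the hypoxia-inducible factors HIF1 and HIF2 change gene expression in the small intestine. Organoids were transduced with adenovirus carrying GFP (Ad-GFP, the control), a human HIF2 allele (Ad-hHIF2) or a human HIF1 allele (Ad-hHIF1), with 3 libraries per group, numbered 1, 3 and 4. Both HIF alleles carry mutations that keep the protein from degradation in the presence of oxygen. Cells of every group received 50 viral particles per cell and were harvested about 72 hours later. Every group, controls included, was grown in L-WRN conditioned medium, which supplies Wnt3a, R-spondin 3 and noggin, with inhibitors of ROCK and of the TGF-β receptor. Nicotinamide was added to the medium after transduction. The study describes its duodenal organoids as cultured at an oxygen level below that of air. All readings below were therefore taken in cells that received Wnt and R-spondin from outside. The replicates are described as biological, but it is not stated that each came from a separate mouse, so p-values measure only the spread between these libraries.

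In canonical Wnt signalling, a secreted Wnt protein binds a Frizzled receptor together with Lrp5 or Lrp6. Dishevelled is then recruited, the destruction complex of Axin, Apc, Gsk3 and casein kinase 1 stops marking β-catenin for breakdown, and β-catenin enters the nucleus to activate genes with TCF/LEF factors. In the intestine this pathway keeps crypt stem cells dividing, and R-spondins strengthen it by removing the ubiquitin ligases Rnf43 and Znrf3, which would otherwise take Frizzled off the cell surface.

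Libraries held 21722618 to 51119041 expected counts. Keratin genes of simple epithelium were abundant, with Krt8, Krt18 and Krt19 each at 764 CPM (counts-per-million) or more in every library, and Cdh1 lay between 204 and 352 CPM. The gut epithelial markers Epcam (1.42 to 3.80 CPM) and Vil1 (3.26 to 4.93 CPM) were low, and the summed level of 6 Paneth cell markers did not exceed 0.464 CPM in any library. Differentiated cell markers were low too. The sum of 6 enterocyte markers ran from 0.669 to 1.75 CPM, and that of 5 enteroendocrine markers did not exceed 0.388 CPM. Of 9 epithelial markers tested, Cdh1 was higher and Epcam lower in Ad-hHIF2 than in Ad-GFP, and of 2 duodenal markers tested Gata4 was higher. Of 2 goblet cell markers tested Muc2 fell, from 4.64, 5.43 and 7.49 CPM in Ad-GFP to 1.62, 1.49 and 2.0 CPM in Ad-hHIF2 (log2 fold change -1.77, adjusted p = 0.000882, edgeR). Of 3 immune markers tested Ptprc fell, from 0.492, 0.665 and 1.15 CPM to 0.0686, 0.0588 and 0 CPM (adjusted p = 0.00472, edgeR). None of 2 enterocyte markers, 5 mesenchymal markers or the 1 endothelial marker tested passed. Summed goblet markers ranged from 5.98 to 9.04 CPM in Ad-GFP and from 2.61 to 2.71 CPM in Ad-hHIF2, and summed endothelial markers from 1.60 to 3.11 CPM and from 1.02 to 1.71 CPM. The summed mesenchymal markers ranged from 12.0 to 18.3 CPM in Ad-GFP and from 10.01 to 12.9 CPM in Ad-hHIF2, and the summed immune markers from 11.7 to 17.5 CPM and from 12.6 to 16.6 CPM. The part of these cell types in the results below was not tested. A set of 1625 olfactory, vomeronasal and trace amine receptor genes, normally silent outside sensory tissue, gave a per-library reading of reads from genes that should be off. Their CPM per kilobase (kb) was 0.0531, 0.0828 and 0.0935 in Ad-GFP, 0.0194, 0.0307 and 0.0421 in Ad-hHIF2, and 0.0967, 0.294 and 0.0373 in Ad-hHIF1. All Ad-hHIF2 libraries thus lay below all Ad-GFP libraries, and Ad-hHIF1 replicate 3 stood apart from the rest, with 16.0% of its counts on a pair of satellite-like gene models against 0.433% to 4.28% elsewhere. In comparisons with Ad-hHIF1, results that turn on this library are given with and without it. Fits of all 9 samples for Ad-hHIF2 against Ad-GFP include it and were not run without it. The same holds for every fit with the level of the silent receptor genes as a covariate. Ad-hHIF2 and Ad-GFP do not overlap in that covariate, so such fits cannot tell its part from that of the HIF2 allele.

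In Ad-hHIF2 organoids the 3 most expressed of the 8 ligand members fell. Of the 7 receptors tested 4 rose, as did 8 genes that act further downstream or inhibit the pathway. Wnt4, one of these ligands, did not pass in the fit of all 9 samples, with or without the silent receptor genes as a covariate. The adjusted p threshold was 0.05 throughout (edgeR, Benjamini-Hochberg over all genes tested), and 37 of the 47 members had enough counts to be tested. Of these, 12 rose, which is 32.4% of those tested against 15.9% of all 14987 genes tested. Without Ad-GFP replicate 3 the number was 7, with 1715 of 15315 genes higher in all. A further 3 fell, which is 8.11% against 13.6% of all genes tested, and 22 did not pass. The median log2 fold change was 0.24 over the 37 members and -0.01 over all genes tested. With at least a 2-fold change, Lrp5 and Fzd6 were higher, where 2.9% of all genes tested were, and Wnt7a and Wnt4 were lower, where 3.83% were. In 18 members every Ad-hHIF2 library lay above every Ad-GFP library (23.4% of all genes tested did so), and in 6 every Ad-hHIF2 library lay below (22.4% of all genes tested). In bulk RNA, fewer cells of a type and less RNA per cell cannot be told apart.

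**Figure D1:**
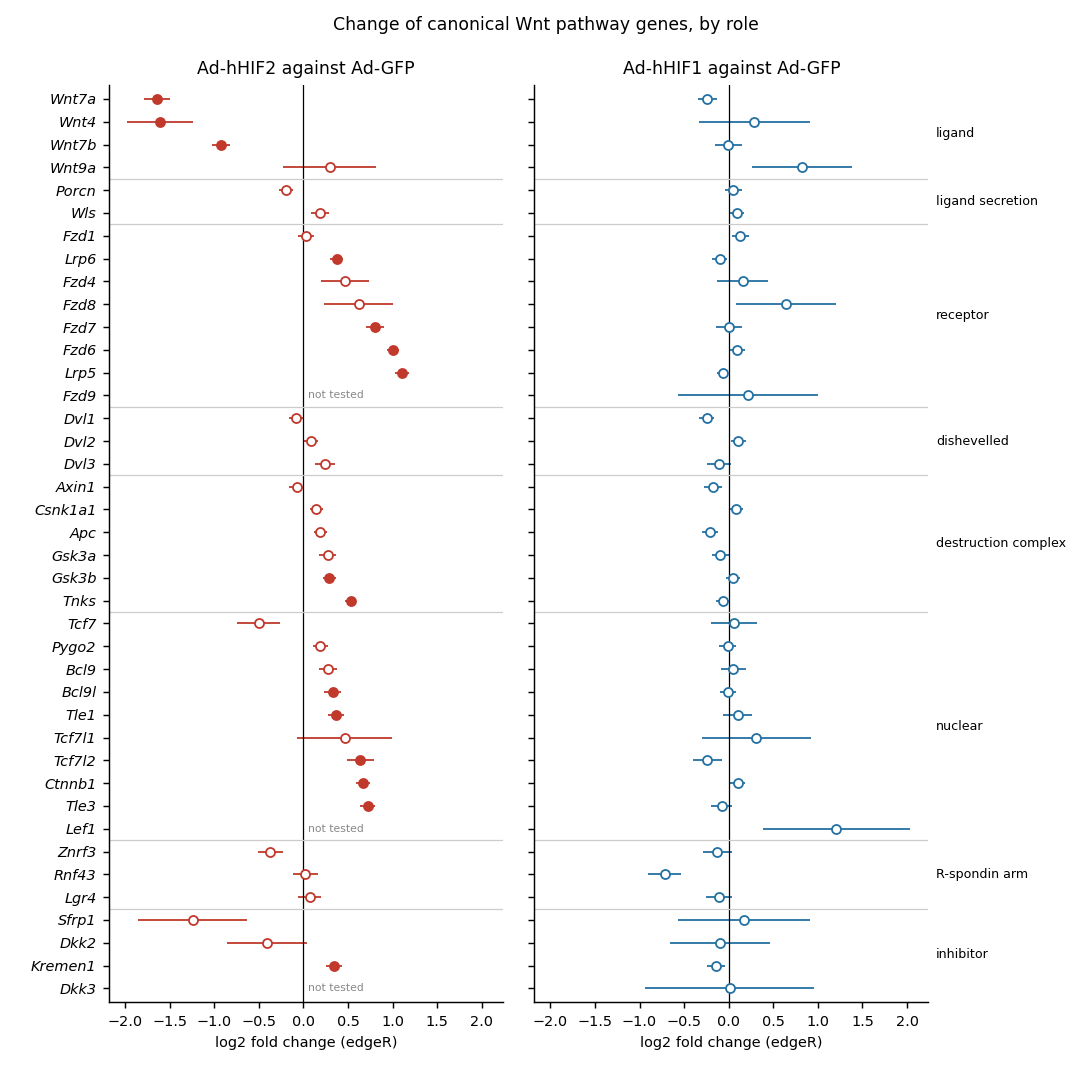
Log2 fold change of the members tested, grouped by role, in Ad-hHIF2 (left) and Ad-hHIF1 (right) organoids against Ad-GFP. Points are edgeR estimates with bars of 1 standard error, and filled points passed an adjusted p of 0.05. The 3 filled points left of zero are Wnt ligands and the 12 right of zero lie among receptors, destruction complex, nuclear genes and inhibitors, while no point is filled under Ad-hHIF1.

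Among the 8 ligands, Wnt7a, Wnt7b and Wnt4 carried nearly all of the signal. Wnt7a, a ligand of epithelia and neurons, is on chromosome 6 (91363981 to 91411363, minus strand, GRCm38) and had 12.8, 11 and 12.3 CPM in Ad-GFP. It had 3.15, 4.0 and 4.43 CPM in Ad-hHIF2, and 10.5, 9.66 and 10.5 CPM in Ad-hHIF1. The highest Ad-hHIF2 library was under the lowest library of either other group. The fitted level was 3.12-fold lower in Ad-hHIF2 than in Ad-GFP (log2 fold change -1.64, standard error 0.151, adjusted p = 0.000118, edgeR). With the level of the silent receptor genes as a covariate over all 9 samples, the log2 fold change was as large, at -1.65 (adjusted p = 7.23e-05, edgeR).

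Wnt7b, the closest relative of Wnt7a, is on chromosome 15 (85535437 to 85582473, minus strand). Its level was 18.9, 19.0 and 16.5 CPM in Ad-GFP, 9.71, 10.3 and 8.60 CPM in Ad-hHIF2, and 19.4, 14.0 and 20.8 CPM in Ad-hHIF1. Again no Ad-hHIF2 library reached either other group. The level was 1.90-fold lower in Ad-hHIF2 than in Ad-GFP (log2 fold change -0.92, standard error 0.104, adjusted p = 0.000346, edgeR), and the log2 fold change was -1.18 with the silent receptor covariate.

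Wnt4, on chromosome 4 (137277489 to 137299726, plus strand), encodes a ligand that acts through β-catenin or independently of it, depending on the tissue. It had 6.58, 9.08 and 12.7 CPM in Ad-GFP, 1.53, 3.26 and 4.53 CPM in Ad-hHIF2, and 6.95, 24.4 and 3.58 CPM in Ad-hHIF1. The Ad-hHIF2 libraries lay below the Ad-GFP libraries, but the Ad-hHIF1 libraries spanned both. The log2 fold change from Ad-GFP to Ad-hHIF2 was -1.61 (standard error 0.371, adjusted p = 0.0123, edgeR), a 3.05-fold lower level. Wnt4 ran with the silent receptor genes across libraries: it was lowest in Ad-hHIF2 replicate 1 and highest in Ad-hHIF1 replicate 3, the libraries where those genes were also lowest and highest. Per kb its level was 17.7 to 33.6 times theirs in every library. With their level as a covariate the log2 fold change was -0.31 (adjusted p = 0.303, edgeR), and a fit of all 9 samples gave -1.61 (adjusted p = 0.0927, edgeR). Both fits include Ad-hHIF1 replicate 3. The covariate does not overlap between Ad-hHIF2 and Ad-GFP, so its part and that of the HIF2 allele cannot be told apart. The part of these reads in the Wnt4 result was not tested further.

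**Figure D2:**
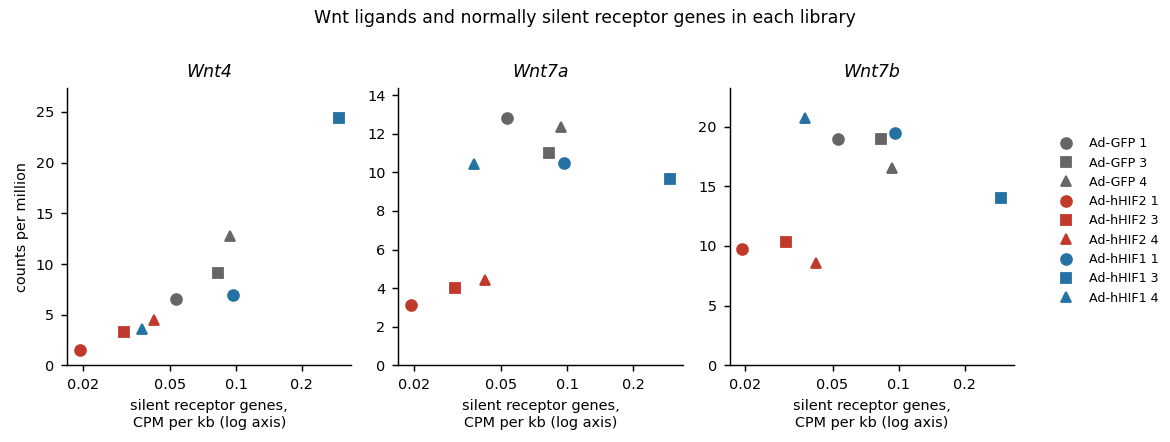
Level in counts-per-million of Wnt4, Wnt7a and Wnt7b (vertical axes, from 0) against the CPM per kb of 1625 normally silent receptor genes (horizontal axis, log scale) in each of the 9 libraries. Colours give the group and symbols the replicate number. Wnt4 climbs with the silent receptor genes from 1.53 to 24.4 CPM, while Wnt7a and Wnt7b stay low in Ad-hHIF2 and high in the other 6 libraries.

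The promoters of Wnt7a and Wnt4 are printed because these were the members that fell past 2-fold and have a RefSeq window (GRCm38.p6), cut here to the bases upstream of the annotated start. Capitals mark the core of the hypoxia response element (ACGTG or GCGTG, searched on both strands), which here lies on the reverse strand of both.
Wnt7a, chr6:91411364-91411603, minus strand, 5′ to 3′: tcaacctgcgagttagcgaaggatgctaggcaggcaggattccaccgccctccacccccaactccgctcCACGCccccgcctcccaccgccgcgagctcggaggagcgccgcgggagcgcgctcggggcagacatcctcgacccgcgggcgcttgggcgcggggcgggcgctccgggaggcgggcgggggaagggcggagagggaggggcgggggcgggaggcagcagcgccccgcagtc
Wnt4, chr4:137277385-137277488, plus strand, 5′ to 3′: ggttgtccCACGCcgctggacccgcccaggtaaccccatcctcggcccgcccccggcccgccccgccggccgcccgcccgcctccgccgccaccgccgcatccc
Each window held 1 such core and no TCF/LEF motif (the letters CTTTGAA, the letters CTTTGAT, the letters CTTTGTA or the letters CTTTGTT, on either strand). Over full windows of 300 bases, the hypoxia core was found in 26 of 40 windows of 30 members (65.0%), against 43.8% of 32851 RefSeq windows. A TCF/LEF motif was found in 6 of the 40 (15.0%), against 16.9% of all windows. These shares cover members that passed and members that did not, and were not compared between them. Lrp5, Fzd6 and Wnt7b had no window. Such short letters occur often, and a match is a description of the sequence and not a binding site.

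The other 5 ligands were scarcely expressed. Wnt9a, at 0.20 to 0.727 CPM over the 9 libraries, was tested and did not pass (log2 fold change 0.29, adjusted p = 0.705, edgeR). Wnt3, Wnt6, Wnt10a and Wnt11 were among 7 members that the count filter left out of every comparison, of which none exceeded 13 counts or 0.481 CPM in a library. Summed over the 8 ligand members, the level was 39.2, 39.5 and 41.9 CPM in Ad-GFP, 14.9, 18.2 and 18.1 CPM in Ad-hHIF2, and 38.0, 49.3 and 35.6 CPM in Ad-hHIF1. Wnt7a and Wnt7b made up 69.0% to 81.1% of that sum in Ad-GFP and 71.8% to 86.6% in Ad-hHIF2. They made up 48.0% in Ad-hHIF1 replicate 3, where Wnt4 was highest. These sums are descriptions and leave out other Wnt genes, such as Wnt10b (1.71 to 3.39 CPM over the 9 libraries), and the Wnt3a protein of the medium.

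The proteins that modify and carry Wnt ligands did not pass. Porcn, which attaches the lipid that Wnt proteins need, had 27.9, 29.0 and 32.5 CPM in Ad-GFP and 26.1, 24.8 and 26.7 CPM in Ad-hHIF2, and the log2 fold change of -0.20 had an adjusted p of 0.0988 (edgeR). Wls, which carries the finished ligand to the cell surface, had 58.2, 62.5 and 53.5 CPM in Ad-GFP and 62.3, 74.2 and 60.9 CPM in Ad-hHIF2 (log2 fold change 0.18, adjusted p = 0.194, edgeR). Porcn libraries did not overlap between those groups, and Wls libraries did. In Ad-hHIF1, Porcn had 28.9, 33.8 and 30.0 CPM and Wls 62.4, 59.7 and 63.2 CPM.

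Among the receptors, 4 of the 7 tested rose and none fell. Lrp5, a Wnt co-receptor on chromosome 19 (3584828 to 3686564, minus strand), had 86.7, 88.0 and 88.8 CPM in Ad-GFP. It had 197, 173 and 194 CPM in Ad-hHIF2, and 84.6, 84.1 and 82.3 CPM in Ad-hHIF1. Every Ad-hHIF2 library was far above both other groups, whose libraries differed little. The increase was 2.15-fold (log2 fold change 1.10, standard error 0.0778, adjusted p = 2.84e-05, edgeR). Lrp6, the other co-receptor, began at a similar level of 82.6, 87.8 and 90.3 CPM in Ad-GFP and had 118, 107 and 110 CPM in Ad-hHIF2, with 88.4, 76.3 and 78.1 CPM in Ad-hHIF1. Its increase was 1.29-fold (log2 fold change 0.37, standard error 0.0740, adjusted p = 0.00646, edgeR), with no overlap between those groups. Per kb of effective length, Lrp5 stood at 21.3 and Lrp6 at 11.1 CPM per kb in Ad-GFP, and at 45.4 and 13.5 in Ad-hHIF2.

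Of the 6 Frizzled receptors, Fzd6 and Fzd7 rose. Fzd6, on chromosome 15 (39006034 to 39038188, plus strand) and best known for its part in tissue polarity, had 16.5, 16.1 and 17.5 CPM in Ad-GFP, 34.0, 33.3 and 32.8 CPM in Ad-hHIF2, and 16.9, 19.0 and 17.4 CPM in Ad-hHIF1. The increase of 2.01-fold (log2 fold change 1.0, standard error 0.0703, adjusted p = 2.74e-05, edgeR) sat just past the 2-fold mark and was 0.97 to 1.05 on the log2 scale as each library was left out. Fzd7, the Frizzled known for its role in intestinal stem cells, had 14.3, 11.9 and 14.9 CPM in Ad-GFP and 24.3, 23.3 and 23.7 CPM in Ad-hHIF2. It was 1.74-fold higher (log2 fold change 0.80, standard error 0.0977, adjusted p = 0.000531, edgeR), with Ad-hHIF1 at 15.6, 11.5 and 13.9 CPM. In both genes the Ad-hHIF2 libraries were narrowly grouped and lay above all others.

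Fzd1 did not pass, with 20.3, 20.2 and 21.9 CPM in Ad-GFP against 23.4, 19.8 and 20.2 CPM in Ad-hHIF2 (log2 fold change 0.03, adjusted p = 0.832, edgeR). Fzd1 was the Frizzled member with the highest level per kb in Ad-GFP (5.12 ± 0.228 CPM per kb, SD, n = 3, against 4.24 ± 0.185 for Fzd6). In Ad-hHIF2 it came after Fzd6 (5.21 ± 0.492 against 8.47 ± 0.156) and close to Fzd7 (5.41 ± 0.111). Fzd4, at 2.0 to 4.18 CPM in Ad-GFP and 3.75 to 5.53 CPM in Ad-hHIF2, and Fzd8, below 1.2 CPM in every library, did not pass. Fzd9 was too low for the Ad-hHIF2 and Ad-GFP comparison, and passed as lower in the fit without Ad-GFP replicate 4. Summed over the 6 Frizzled members, the level was 53.3 to 56.7 CPM in Ad-GFP, 81.4 to 87.9 CPM in Ad-hHIF2 and 57.5 to 60.2 CPM in Ad-hHIF1. The sum leaves out other Frizzled genes, of which Fzd5 fell, from 24.4, 23.1 and 28.0 CPM in Ad-GFP to 21.0, 17.98 and 20.8 CPM in Ad-hHIF2 (log2 fold change -0.33, adjusted p = 0.0343, edgeR). That call was lost without Ad-hHIF2 replicate 1 and with total counts as the scale. Fzd2, at 7.25 to 11.3 CPM in Ad-GFP and 6.86 to 7.60 CPM in Ad-hHIF2, did not pass.

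**Figure D3:**
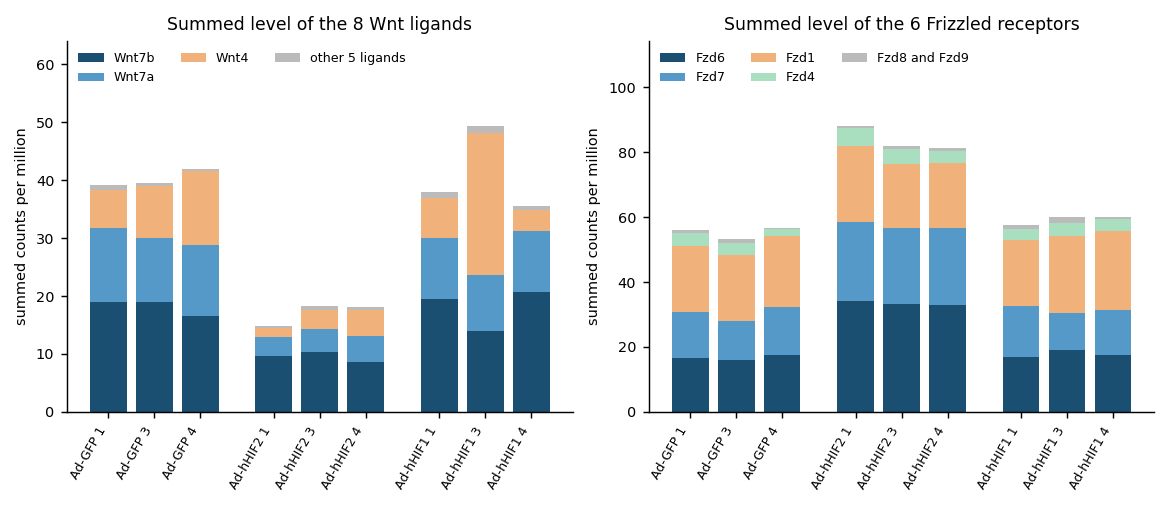
Summed level in counts-per-million of the 8 Wnt ligands (left) and the 6 Frizzled receptors (right) among the members in each library, stacked by gene, without other genes of either family such as Fzd5. The ligand sum is 14.9 to 18.2 in Ad-hHIF2 against 39.2 to 41.9 in Ad-GFP, and the Frizzled sum is 81.4 to 87.9 against 53.3 to 56.7.

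The dishevelled genes, whose products relay the signal from the receptor, did not pass. Dvl1, the most abundant of them, had 84.3, 79.3 and 73.1 CPM in Ad-GFP and 70.7, 76.8 and 75.6 CPM in Ad-hHIF2 (log2 fold change -0.08, adjusted p = 0.484, edgeR). The groups overlapped for Dvl1 and Dvl2, and for Dvl3 the Ad-hHIF2 libraries lay above (log2 fold change 0.24, adjusted p = 0.131, edgeR).

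In the destruction complex, Tnks and Gsk3b rose, and 4 members did not pass. Tnks encodes tankyrase 1, which marks Axin for breakdown. It had 40.6, 40.8 and 39.5 CPM in Ad-GFP, 56.4, 58.3 and 59.6 CPM in Ad-hHIF2, and 41.8, 36.2 and 37.3 CPM in Ad-hHIF1. The Ad-hHIF2 libraries lay above both other groups, and the level was 1.44-fold higher than in Ad-GFP (log2 fold change 0.53, standard error 0.0641, adjusted p = 0.000513, edgeR). Gsk3b, a kinase that phosphorylates β-catenin, had 52.3, 53.5 and 54.8 CPM in Ad-GFP, 69.3, 59.9 and 66.6 CPM in Ad-hHIF2, and 60.5, 53.3 and 52.0 CPM in Ad-hHIF1. It was 1.22-fold higher than in Ad-GFP (log2 fold change 0.29, adjusted p = 0.0195, edgeR). As each library was left out the log2 fold change stayed between 0.27 and 0.35, but the adjusted p crossed the threshold. It did not pass with the silent receptor covariate (adjusted p = 0.0747). Without Ad-GFP replicate 1 or 3, or without Ad-hHIF2 replicate 1 or 4, the adjusted p was 0.0680, 0.0703, 0.0550 and 0.0587 in turn.

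Axin1, the scaffold of the complex, had 47.0, 43.9 and 51.0 CPM in Ad-GFP and 42.6, 44.2 and 47.5 CPM in Ad-hHIF2, which overlapped, with 45.1, 36.0 and 44.3 CPM in Ad-hHIF1 (log2 fold change of Ad-hHIF2 over Ad-GFP -0.08, adjusted p = 0.531, edgeR). Csnk1a1, the casein kinase that makes the first phosphorylation of β-catenin, had 122, 124 and 115 CPM in Ad-GFP and 135, 133 and 129 CPM in Ad-hHIF2, with 131, 122 and 128 CPM in Ad-hHIF1. Ad-GFP and Ad-hHIF2 did not overlap, but the log2 fold change was 0.14 and did not pass (adjusted p = 0.150, edgeR). Apc, the tumour suppressor of the complex, and Gsk3a, the other Gsk3 kinase, also lay higher in CPM in every Ad-hHIF2 library, with log2 fold changes of 0.19 and 0.27 and adjusted p of 0.0844 and 0.0633 (edgeR). Per kb of effective length Apc was not higher, at 4.88 ± 0.903 CPM per kb in Ad-GFP and 4.78 ± 0.423 in Ad-hHIF2 (SD, n = 3). Gsk3a per kb was 8.08 ± 0.494 and 9.74 ± 0.954. Gsk3a passed with the replicate block (adjusted p = 0.0335), with no count filter (0.0343), with total counts as the scale (0.0221) and without Ad-GFP replicate 4 (0.0341).

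Of the 9 nuclear genes tested, 5 rose. Ctnnb1, which encodes β-catenin, was the most abundant member in every group, at 427, 430 and 389 CPM in Ad-GFP, 664, 668 and 648 CPM in Ad-hHIF2, and 463, 411 and 460 CPM in Ad-hHIF1. Its RNA was 1.59-fold higher in Ad-hHIF2 than in Ad-GFP (log2 fold change 0.67, standard error 0.0787, adjusted p = 0.000428, edgeR), with no overlap. That fit used counts and did not take effective length into account. Per kb of effective length, Ctnnb1 stood at 234 ± 27.3 CPM per kb in Ad-GFP and 315 ± 15.5 in Ad-hHIF2 (SD, n = 3), a smaller relative rise. The part of length in the rise was not tested. Protein, its phosphorylation and its place in the cell were not measured here. Tcf7l2, the main TCF factor of the intestinal epithelium, had 7.92, 6.87 and 7.14 CPM in Ad-GFP and 12.0, 8.96 and 13.3 CPM in Ad-hHIF2, with 5.87, 7.39 and 5.37 CPM in Ad-hHIF1. Ad-GFP and Ad-hHIF2 did not overlap and the increase was 1.56-fold (log2 fold change 0.64, adjusted p = 0.0149, edgeR), but it did not pass without Ad-GFP replicate 3 (adjusted p = 0.0589) or without Ad-hHIF2 replicate 4 (adjusted p = 0.0516).

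Bcl9l, an adaptor between β-catenin and the Pygopus proteins, had 22.3, 22.2 and 26.4 CPM in Ad-GFP and 27.6, 29.1 and 31.8 CPM in Ad-hHIF2, with 23.95, 23.6 and 22.9 CPM in Ad-hHIF1. It rose 1.25-fold over Ad-GFP (log2 fold change 0.33, adjusted p = 0.0335, edgeR), without overlap, and the adjusted p was 0.107, 0.119, 0.0859 and 0.102 without Ad-GFP replicate 1, Ad-GFP replicate 3, Ad-hHIF2 replicate 3 or Ad-hHIF2 replicate 4.

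The other 2 nuclear genes that rose, Tle1 and Tle3, encode Groucho co-repressors, which hold TCF target genes off when β-catenin is absent. Tle3 had 58.2, 52.9 and 62.0 CPM in Ad-GFP, 102, 89.9 and 92.2 CPM in Ad-hHIF2, and 59.8, 45.5 and 58.4 CPM in Ad-hHIF1. The Ad-hHIF2 libraries lay above all others, a 1.65-fold increase over Ad-GFP (log2 fold change 0.72, standard error 0.0874, adjusted p = 0.000522, edgeR). Tle1 had 16.7, 16.0 and 17.1 CPM in Ad-GFP and 23.3, 21.6 and 19.2 CPM in Ad-hHIF2, while its Ad-hHIF1 libraries, at 19.9, 13.1 and 20.1 CPM, spanned both. Tle1 passed (log2 fold change 0.37, adjusted p = 0.0155, edgeR), but the log2 fold change was 0.09 with the silent receptor covariate (adjusted p = 0.652, edgeR) and 0.36 in the fit of all 9 samples without it (adjusted p = 0.101, edgeR). Its adjusted p was 0.0660, 0.0583 and 0.0595 without Ad-GFP replicate 3, Ad-hHIF2 replicate 1 or Ad-hHIF2 replicate 3. Bcl9 (log2 fold change 0.27, adjusted p = 0.0727), Pygo2 (0.19 and 0.113), Tcf7 (-0.50 and 0.150) and Tcf7l1 (0.46 and 0.549) did not pass (edgeR), and Lef1 was too low to be tested.

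**Figure D4:**
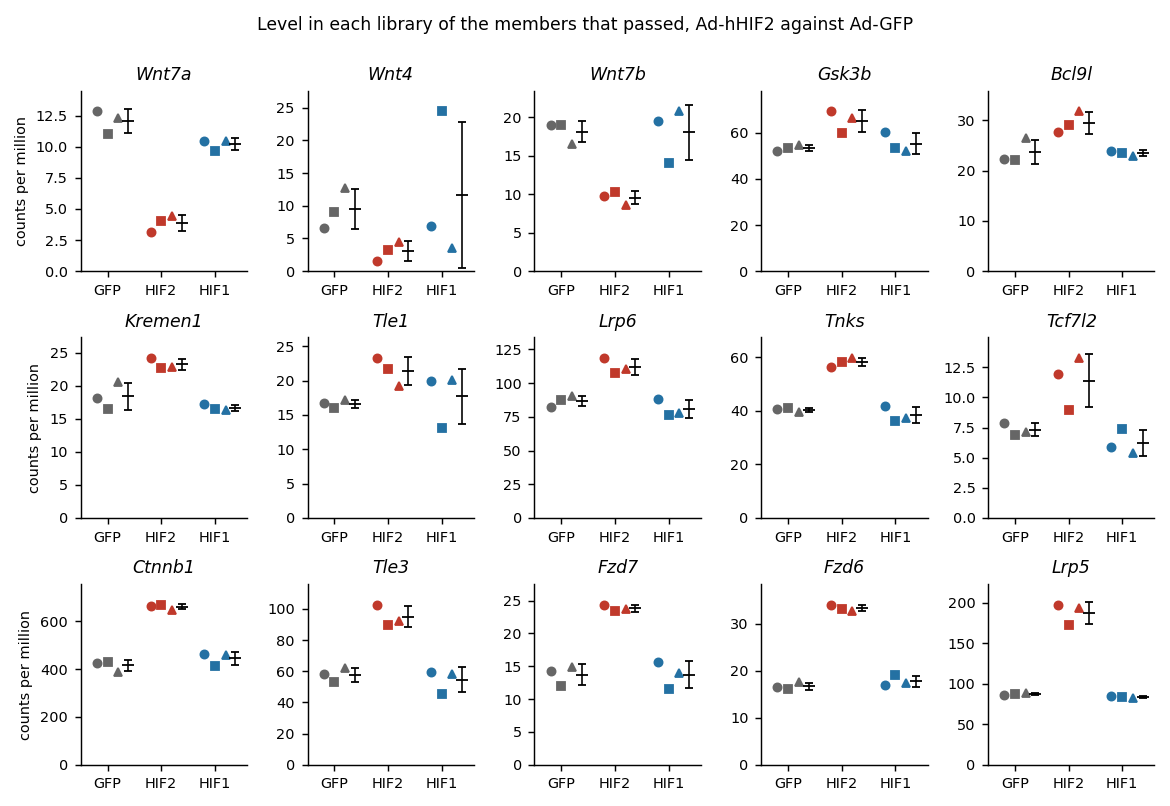
Level in counts-per-million (vertical axes, from 0) of the 15 members that passed an adjusted p of 0.05 between Ad-hHIF2 and Ad-GFP, in all 9 libraries. Circles, squares and triangles are replicates 1, 3 and 4, and black bars give the mean and SD of 3 libraries. Red Ad-hHIF2 points lie apart from grey Ad-GFP points in each panel, while blue Ad-hHIF1 points lie on or near grey ones for most genes and spread widely for Wnt4, from 3.58 to 24.4, and Tle1.

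The R-spondin arm did not pass in Ad-hHIF2. For Lgr4, an R-spondin receptor, the log2 fold change was 0.07 at an adjusted p of 0.736 (edgeR). It had 17.8, 16.6 and 24.1 CPM in Ad-GFP and 20.5, 20.1 and 20.2 CPM in Ad-hHIF2, and passed as higher only in the fit without Ad-GFP replicate 4 among those that left out a library. Rnf43 had 4.56, 5.54 and 5.34 CPM in Ad-GFP, 4.94, 5.18 and 5.50 CPM in Ad-hHIF2, and 3.26, 3.37 and 2.76 CPM in Ad-hHIF1. For Znrf3 every Ad-hHIF2 library lay below every Ad-GFP library (log2 fold change -0.37, adjusted p = 0.0822, edgeR). Both genes encode ubiquitin ligases and are themselves Wnt targets.

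Among the 7 inhibitors, Kremen1, a receptor for Dkk proteins that takes Lrp5 and Lrp6 off the membrane, was the only one above 2 CPM. It had 18.2, 16.5 and 20.6 CPM in Ad-GFP, 24.2, 22.8 and 22.9 CPM in Ad-hHIF2, and 17.2, 16.5 and 16.4 CPM in Ad-hHIF1. The Ad-hHIF2 libraries lay above the others and the increase over Ad-GFP was 1.27-fold (log2 fold change 0.34, adjusted p = 0.0247, edgeR). It passed without Ad-GFP replicate 4 and in none of the other 5 fits that left out a library, where the adjusted p ran up to 0.0897. With the silent receptor covariate the adjusted p was 0.0559. The secreted inhibitors Sfrp1 and Dkk2 were tested and did not pass (log2 fold changes -1.24 and -0.41, adjusted p = 0.159 and 0.529, edgeR), at levels under 1.4 CPM. Nkd1, Notum, Dkk3 and Sfrp5, also inhibitors, were too low to be tested here.

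Levels between members were compared per kb. Ctnnb1 led at 234 ± 27.3 CPM per kb in Ad-GFP (SD, n = 3), followed by Csnk1a1 (45.4 ± 1.27), Dvl1 (24.6 ± 2.01), Lrp5 (21.3 ± 0.306), Axin1 (19.8 ± 1.92), Wls (18.9 ± 1.03), Porcn (18 ± 1.71) and Tle3 (16.9 ± 1.91). Ctnnb1 and Csnk1a1 stood clear of what followed, whereas each step in this order from Lrp5 down to Tle3 was smaller than the larger SD of the pair. In Ad-hHIF2, Lrp5 (45.4 ± 3.34) and Tle3 (27.4 ± 4.44) moved up to places 3 and 4. Wnt7a went from place 16 to 27 and Wnt7b from place 17 to 26 among the 47.

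**Figure D5:**
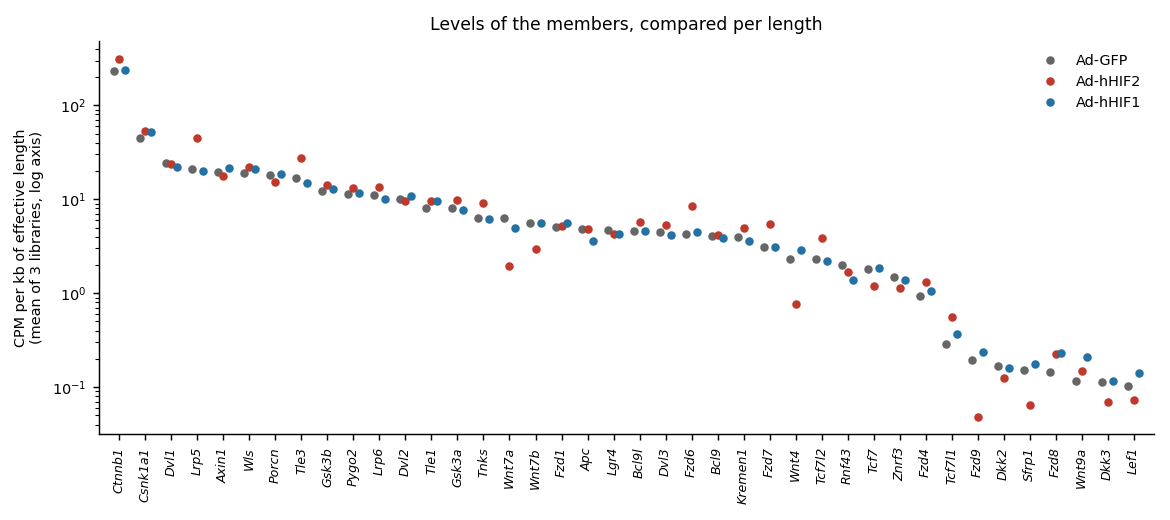
Mean level over 3 libraries of each member tested in at least 1 comparison, in CPM per kb of effective length on a log axis, ordered by the Ad-GFP level. Grey is Ad-GFP, red Ad-hHIF2 and blue Ad-hHIF1. Among the members above 1 CPM per kb in Ad-GFP, red points depart most visibly downwards at Wnt7a, Wnt7b and Wnt4 and upwards at Lrp5, Fzd6, Fzd7, Tcf7l2 and Tle3, while members at the right end, such as Fzd9, have few counts.

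Under Ad-hHIF1, none of the 40 members tested passed, as was true of all genes tested (0.0% of 15233, edgeR). At an unadjusted p below 0.05 there were 2 members, Rnf43 and Dvl1, and 1308 genes in all. Over all genes DESeq2 called 68 higher and 76 lower and limma-voom 4 and 1, and edgeR with no count filter called 258 and 126, none of them a member. The smallest adjusted p among members was 0.490, for Rnf43 (log2 fold change -0.72, standard error 0.187, edgeR), whose Ad-hHIF1 libraries all lay below the Ad-GFP libraries. Dvl1, with 67.4, 62.2 and 69.7 CPM in Ad-hHIF1, also lay below Ad-GFP in each library (log2 fold change -0.25, adjusted p = 0.517, edgeR). Groups did not overlap for 1 member tested that was higher in Ad-hHIF1, Wnt9a, where 8.36% of all genes did so, and for 4 that were lower, Wnt7a, Lrp5, Dvl1 and Rnf43, where 9.04% did. The log2 fold changes of Wnt7a (-0.24) and Lrp5 (-0.07) were small beside those under Ad-hHIF2, and Wnt4 went from 0.29 to -0.84 when Ad-hHIF1 replicate 3 was left out. No member passed without that library either.

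The difference between both HIFs was tested directly, with all 9 samples in 1 edgeR fit. Of 40 members tested, 13 were higher in Ad-hHIF2 than in Ad-hHIF1 (32.5%, against 13.7% of all 15556 genes tested) and 3 were lower (7.5%, against 12.0%). Since this comparison and that with Ad-GFP share the Ad-hHIF2 libraries, they are not independent. Lrp5 had a log2 fold change of 1.17 (adjusted p = 2.21e-06), Fzd6 of 0.91 (1.24e-05) and Fzd7 of 0.79 (0.00088), and Wnt7a of -1.41 (5.14e-05) and Wnt7b of -0.92 (0.00105). Tcf7l2 (0.88), Tle3 (0.80), Tnks (0.60), Ctnnb1 (0.57), Kremen1 (0.48), Lrp6 (0.47) and Bcl9l (0.33) were higher too, and Bcl9l did not pass in 5 of the 9 fits that left out a library. Rnf43, with 3.26, 3.37 and 2.76 CPM in Ad-hHIF1, differed by 0.74 (adjusted p = 0.00682), and Apc by 0.39 (adjusted p = 0.00928), but Apc did not pass with the silent receptor covariate (adjusted p = 0.0836). Gsk3a, which differed by 0.36 (adjusted p = 0.0183), did not pass without Ad-hHIF2 replicate 1, Ad-hHIF2 replicate 4 or Ad-hHIF1 replicate 1. Porcn was lower by a log2 fold change of -0.26 at an adjusted p of 0.0494, and did not pass in 7 of the 9 fits that left out a library, such as that without Ad-hHIF1 replicate 3 (adjusted p = 0.128). Wnt4 did not pass (log2 fold change -1.90, adjusted p = 0.0517), and without Ad-hHIF1 replicate 3 its log2 fold change was -0.78 (adjusted p = 0.244). Without Ad-hHIF1 replicate 4 it was -2.33 and passed (adjusted p = 0.0123). Wnt4 also passed with DESeq2 (adjusted p = 0.0436), with total counts as the scale (0.0216), with no count filter and with at least 10 counts in every sample. With the silent receptor covariate its log2 fold change turned to 0.25 (adjusted p = 0.545).

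A second list held 55 further genes of the pathway, of which 30 were tested in Ad-hHIF2 against Ad-GFP. Of these 8 rose (26.7%, against 15.9% of all genes tested) and 3 fell (10%, against 13.6%), with a median log2 fold change of 0.23. Those that rose were casein kinase 1 genes (Csnk1d, Csnk1g1, Csnk1g2, Csnk1g3), Tnks2, the co-activators Ep300 and Crebbp, and Cby1, an inhibitor of β-catenin. Their log2 fold changes lay between 0.22 and 0.54. Fzd5, Lgr6 and Dact3 fell, and of these 11 genes only Dact3 passed 2-fold. Dact3, which encodes a dishevelled antagonist, had 0.928, 1.02 and 2.0 CPM in Ad-GFP and 0.526, 0.333 and 0.549 CPM in Ad-hHIF2 (log2 fold change -1.47, adjusted p = 0.0368, edgeR). The groups did not overlap, but Dact3 passed in only 1 of the 6 fits that left out a library. It did not pass with total counts as the scale or with the silent receptor covariate. This list had 4 higher genes without Ad-GFP replicate 3 and 5 without Ad-hHIF2 replicate 4, and it had 0 lower without Ad-hHIF2 replicate 1 and 1 lower without Ad-GFP replicate 4, Ad-hHIF2 replicate 3 or Ad-hHIF2 replicate 4. Under Ad-hHIF1 none of 29 tested passed.

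A list of 13 genes known as Wnt targets in the intestine gave 1 higher and 4 lower of 10 tested in Ad-hHIF2, where 15.9% of all genes tested were higher and 13.6% lower. Axin2, Lgr5 and Apcdd1 stand in both lists. Myc, the proliferation regulator, had 148, 143 and 147 CPM in Ad-GFP and 69.8, 56.7 and 69.3 CPM in Ad-hHIF2 (log2 fold change -1.16, adjusted p = 5.32e-05, edgeR). Sox9, a transcription factor of the crypt, had 6.72, 6.29 and 11.9 CPM in Ad-GFP and 2.26, 2.75 and 2.94 CPM in Ad-hHIF2 (log2 fold change -1.63, adjusted p = 0.0023, edgeR). Both were apart from Ad-GFP in every library, as was Ephb2, a receptor that positions crypt cells, in the other direction. Ephb2 had 2.13, 2.96 and 1.85 CPM in Ad-GFP and 5.64, 5.10 and 5.53 CPM in Ad-hHIF2 (log2 fold change 1.22, adjusted p = 0.00274, edgeR). Ccnd1 (log2 fold change -0.86) and Cd44 (-0.31) also fell, and 3 or 4 of the list were lower as each library was left out. Axin2, the most widely used readout of the pathway, had 0.601, 0.0831 and 0.649 CPM in Ad-GFP and 0.708, 0.922 and 1.0 CPM in Ad-hHIF2 (log2 fold change 1.02, adjusted p = 0.253, edgeR). Sp5 had 0 counts in all 9 libraries, which allows up to 3 counts per library. Lgr5, the stem cell marker, had 0.0819, 0.222 and 0.30 CPM in Ad-GFP and 1.19, 0.333 and 0.549 CPM in Ad-hHIF2 (log2 fold change 1.84, adjusted p = 0.0714, edgeR). Neither Axin2 nor Lgr5 passed, although their Ad-hHIF2 libraries lay above those of Ad-GFP. These targets respond to other signals as well, so their levels are not a measure of Wnt signalling alone.

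Of the 15 members that passed between Ad-hHIF2 and Ad-GFP, 10 passed in each of the 6 fits that left out a library. They were the 3 ligands, Lrp5, Lrp6, Fzd6, Fzd7, Ctnnb1, Tnks and Tle3. Of these 10, only Wnt4 did not pass in the fit of all 9 samples, with or without the silent receptor covariate. When limma was run on the deposited TPM instead of counts, 4 members were higher and 1 lower at log2(TPM + 1). Lrp5, Fzd6, Tle3 and Tcf7l1 were higher on that scale and at log2(TPM + 0.1), of which Tcf7l1 did not pass on counts. On log2(TPM + 1) Wnt4 fell by 0.20 (adjusted p = 0.025, limma), though it did not pass at log2(TPM + 0.1) (adjusted p = 0.0512, limma). Wnt7a (-0.40, adjusted p = 0.126), Wnt7b (-0.16, adjusted p = 0.594) and Ctnnb1 (0.86, adjusted p = 0.129) did not pass on log2(TPM + 1) (limma). That scale understates the change of low genes. Mean TPM in Ad-GFP was 0.76 for Wnt7a and 0.683 for Wnt7b, but 28.5 for Ctnnb1. The cause of the lost calls was not tested.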

How the data were processed

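RNA from 9 organoid cultures was measured by RNA sequencing. Reads of low quality had been discarded. The authors ran RSEM and deposited, for each library, expected counts, which need not be whole, and TPM, which also take transcript length into account. The RSEM version, genome build and annotation are not given in the sources used here. Across libraries 85.7% of expected counts, zeros included, had no fractional part in the 2 decimals deposited. Of the 47 members, 11 had fractional counts, a sign of reads shared with other genes, as did 6 of the 15 that passed between Ad-hHIF2 and Ad-GFP (Wnt4, Lrp5, Lrp6, Ctnnb1, Tnks and Tle1).

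Expected counts were rounded, filtered with filterByExpr, scaled by TMM and tested with edgeR 4.0.16 quasi-likelihood F tests in R 4.3.3, with Benjamini-Hochberg adjustment over all genes tested. Each comparison with Ad-GFP used its 6 samples, and Ad-hHIF2 against Ad-hHIF1 used all 9. TMM factors were 0.907 to 1.31, the highest in Ad-hHIF2 replicate 1. CPM for levels used TMM factors over all 9 samples. Levels between genes were to be given in TPM, but most of the TPM total lay in short genes, led by noncoding RNAs, and values had 2 decimals, so CPM per kb of effective length was used. Fold changes, with their standard errors, come from the fit. Positions are from GENCODE M21 (GRCm38), matched by Ensembl identifier, and promoters from RefSeq. The members, gene lists and tests were chosen with earlier results of these data known. Values in every library are given for members past the threshold and for the 8 most abundant by TPM in Ad-GFP, and for others where a result turned on them. From the lists of other Wnt pathway genes and Wnt targets, genes past both the threshold and 2-fold are named with values, and other genes of these and of the marker lists were named after their values were seen.

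Alternatives were other filters and scalings, DESeq2 1.42.0, limma 3.58.1 (voom, and TPM with pseudocounts of 1 and 0.1), other samples in the fit, the silent receptor genes as a covariate, the replicate number as a block, and leaving out each library. The code was tested on simulated counts.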

Additional observations from a re-analysis of the deposited data

How the results depend on the processing

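Members higher in Ad-hHIF2 than in Ad-GFP numbered 12, and between 7 (without Ad-GFP replicate 3) and 14 as single libraries were left out. They numbered 2 with a 2-fold threshold, 4 on log2(TPM + 1) and 5 on log2(TPM + 0.1) (limma). The 3 lower members became 1 and 0 on those TPM scales, and 3 to 4 with libraries left out. Between Ad-hHIF2 and Ad-hHIF1 the 13 higher became 1 with the 2-fold threshold, 1 on log2(TPM + 1) and 2 on log2(TPM + 0.1), and 11 to 13 with libraries left out. The 3 lower became 1 with the 2-fold threshold, 5 with DESeq2, 0 on each TPM scale, and 2 to 4 with libraries left out. Porcn, lower there, turned to a log2 difference of 0.00337 on log2(TPM + 1). No member passed between Ad-hHIF1 and Ad-GFP under any setting run. The cause of these differences was not tested. Without TMM scaling the median log2 fold change of all genes in Ad-hHIF2 against Ad-GFP moved from -0.01 to 0.24, the split of all genes from 2381 higher and 2035 lower to 3491 and 828, and the members to 16 higher and 3 lower. On log2(TPM + 0.1) that median was 0.30. Of the other Wnt pathway genes, the 3 that fell became 0 without TMM scaling and on each TPM scale. With the silent receptor covariate 1 fell. The 8 that rose became 12 without TMM scaling, 0 on log2(TPM + 1) and 1 on log2(TPM + 0.1). Of the Wnt targets, the 1 higher became 2 with DESeq2, with no count filter, without TMM scaling and on log2(TPM + 0.1). Their 4 lower became 1 on log2(TPM + 1) and 0 on log2(TPM + 0.1). The replicate numbers were not shown to pair the samples: correlations of same-numbered samples were 0.0752, 0.0703 and 0.134 between Ad-GFP and Ad-hHIF2. With the replicate block, Ad-hHIF2 had 13 higher (Gsk3a added) and 3 lower members against Ad-GFP, and 13 and 2 against Ad-hHIF1, and none passed in Ad-hHIF1. The 7 members left out by the count filter in every comparison had at most 13 counts in a library. With no count filter all 47 were tested, and none of these 7 passed.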
